A study of Mus musculus with 10 samples.

Results

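Expression of 9 endothelial marker genes was compared between 3 pieces of the mouse heart, namely right ventricle (RV), left ventricle (LV) and ventricular septum (Septum). The genes were Pecam1, Cdh5, Kdr, Flt1, Vwf, Emcn, Ly6c1, Flt4 and Prox1. Their probes were found through the RefSeq accession that the array files give each probe, which yielded 10 probes, 2 of them for Ly6c1. The whole array held 56605 probes, and 22911 genes could be named in this way. A probe was tested if in at least 1 region all its arrays read well above background. This held for 30234 probes and for 8 of the 9 marker genes, all but Flt4. All arrays came from C57BL/6N mice, and the labels give no further genotype, treatment, age or sex. The groups were 4 RV arrays, 3 LV arrays and 3 Septum arrays, each of total RNA from a frozen piece of heart wall whose ventricles had been perfused with saline. The design text says that individuals differed between experiments. It does not say whether pieces with the same number came from 1 heart, so arrays of different regions may be paired. The main fit takes them as unpaired. The spread between arrays may also be partly technical.

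Endothelial cells line every blood vessel, the lymphatic vessels and, as endocardium, the inner surface of the heart chambers. Pecam1 and Cdh5 encode adhesion molecules at the junctions between endothelial cells, and Kdr and Flt1 encode the receptors for vascular endothelial growth factor (VEGF) on blood vessels. Vwf encodes the clotting glycoprotein stored in the granules of endothelial cells, which is more abundant in veins, larger vessels and endocardium than in capillaries. Emcn, a surface sialomucin, marks capillaries, veins and endocardium. Ly6c1 encodes a surface antigen of microvascular endothelium and some leukocytes. Flt4, the receptor for VEGF-C and VEGF-D, and Prox1, the transcription factor that sets lymphatic identity, mark lymphatic endothelium. Prox1 is also made by cardiomyocytes.

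The RefSeq promoter table (build GRCm38.p6) held windows for 6 of the 9 genes. The 250 bases before the start site of Kdr, Flt1 and Emcn are shown because Kdr and Flt1 moved together from array to array while Emcn did not follow them, as described later. Each is written 5′ to 3′ on the strand of its gene. Capitals mark AGGAAG, a sequence that ETS factors bind, and GGGCGG, the GC box, on either strand, where they read CTTCCT and CCGCCC. Other sequences that ETS factors bind were not searched for and are not marked. No capitals of AGGAAG and the GC box overlap in these windows.
Kdr, chr5:75978456-75978705, minus strand: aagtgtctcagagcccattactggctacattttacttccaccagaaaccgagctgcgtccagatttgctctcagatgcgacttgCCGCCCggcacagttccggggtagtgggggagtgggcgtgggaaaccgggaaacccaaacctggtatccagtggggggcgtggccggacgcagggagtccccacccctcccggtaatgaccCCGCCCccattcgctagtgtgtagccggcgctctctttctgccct
Flt1, chr5:147726012-147726261, minus strand: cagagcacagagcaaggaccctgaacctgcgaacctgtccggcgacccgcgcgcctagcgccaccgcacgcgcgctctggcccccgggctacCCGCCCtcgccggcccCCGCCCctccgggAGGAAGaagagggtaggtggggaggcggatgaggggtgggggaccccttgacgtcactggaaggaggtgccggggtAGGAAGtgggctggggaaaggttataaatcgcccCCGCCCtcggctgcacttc
Emcn, chr3:137340828-137341077, plus strand: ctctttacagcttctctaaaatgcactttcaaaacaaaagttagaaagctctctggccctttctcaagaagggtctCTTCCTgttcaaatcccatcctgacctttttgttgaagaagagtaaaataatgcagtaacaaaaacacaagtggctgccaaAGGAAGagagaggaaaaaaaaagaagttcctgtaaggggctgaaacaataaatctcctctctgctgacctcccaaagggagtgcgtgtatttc
The Kdr window held 0 matches to AGGAAG and 2 GC boxes, and the Flt1 window 2 matches to AGGAAG and 3 GC boxes. The Emcn window held 2 matches to AGGAAG and 0 GC boxes. Among 32851 windows of this length, 29.5% held AGGAAG and 32.7% a GC box. G and C made up 61.6% of the Kdr window, 70.4% of the Flt1 window and 40.8% of the Emcn window. These matches are a description of letters and not of binding.

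Levels are given as the log2 of the background-subtracted spot signal minus the 75th percentile of the array, so that 0 is that percentile and a difference of 1 is a doubling. They can be compared between arrays for a probe but not between probes. The arrays lay on 2 slides, which were also 2 scans. Replicates 1 and 2 of each region lay on slide 1, and every replicate 3, with RV replicate 4, on slide 2. Between 53.7% and 64.0% of the spots of an array were well above background, and no spot was saturated. All 9 cardiomyocyte genes of a marker list were well above background on all 10 arrays. Because the samples are whole tissue, fewer cells of a type and less RNA per cell cannot be told apart.

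Vwf was the marker gene that set RV apart. It was 3.13-fold higher in RV than in LV and 2.26-fold higher in RV than in Septum. The other 7 tested genes, each by its brightest probe, differed by less than 0.4 on the log2 scale in every comparison. They were not called in the fit with no block. With the slide as a block, described later, 7 of the 8 tested genes were called between RV and LV, beside 17.6% of all probes. The Vwf level was 5.57, 5.84, 5.43 and 5.34 on the RV arrays. It was 4.08, 4.18 and 3.42 on the LV arrays and 4.46, 4.49 and 4.15 on the Septum arrays. The lowest RV array lay above the highest LV and Septum arrays, while LV and Septum overlapped. The means were 5.54 ± 0.22 in RV (SD, n = 4), 3.90 ± 0.42 in LV (SD, n = 3) and 4.37 ± 0.19 in Septum (SD, n = 3).

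The log2 difference of Vwf between RV and LV was 1.65 (SE 0.195, 95% interval 1.21 to 2.09), with an adjusted p of 0.00377 in limma's moderated test. That between RV and Septum was 1.18 (SE 0.195, 95% interval 0.74 to 1.62, adjusted p = 0.0212, limma). Septum lay 0.47 above LV, with a 95% interval of 0.00 to 0.94 and an adjusted p of 1.0 (limma), so the order of Septum and LV was not resolved. Across the 3 regions the moderated F test gave Vwf an adjusted p of 0.00633. The difference between RV and LV was 1.57 within slide 1 (adjusted p = 0.0145, limma) and 1.96 within slide 2 (adjusted p = 0.0312, limma). That between RV and Septum was 1.23 within slide 1 (adjusted p = 0.0152, limma) and 1.24 within slide 2 (adjusted p = 0.0517, limma), where LV and Septum had 1 array each. The call between RV and Septum was lost without RV replicate 1, RV replicate 2, Septum replicate 2 or Septum replicate 3, with differences of 1.07 to 1.25 over all arrays left out in turn and adjusted p up to 0.0868 (limma).

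Of the 8 tested marker genes, 1 was called between RV and LV in the fit with no block, beside 3.86% of all probes tested. Between RV and Septum 1 was called, beside 2.08% of all probes. Between Septum and LV limma called 0 of 8, with 1 (Vwf) at an unadjusted p under 0.05, and the methods' analysis of variance with Tukey's correction also called 0, beside 0.552% of all probes. The limma background there was 0.0%, with 862 probes at an unadjusted p under 0.05. The groups did not overlap for 4 of 8 genes between RV and LV (Pecam1, Vwf, Emcn and Ly6c1), against 19.1% of all probes. Between RV and Septum they did not overlap for 3 of 8 (Pecam1, Vwf and Emcn), against 13.7%. Between Septum and LV all 8 overlapped, against 7.0% of probes that did not. The median log2 difference of the 8 genes was -0.14 between RV and LV and -0.0178 between RV and Septum, beside -0.0517 and -0.0378 for all 14645 named genes tested.

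**Figure D1:**
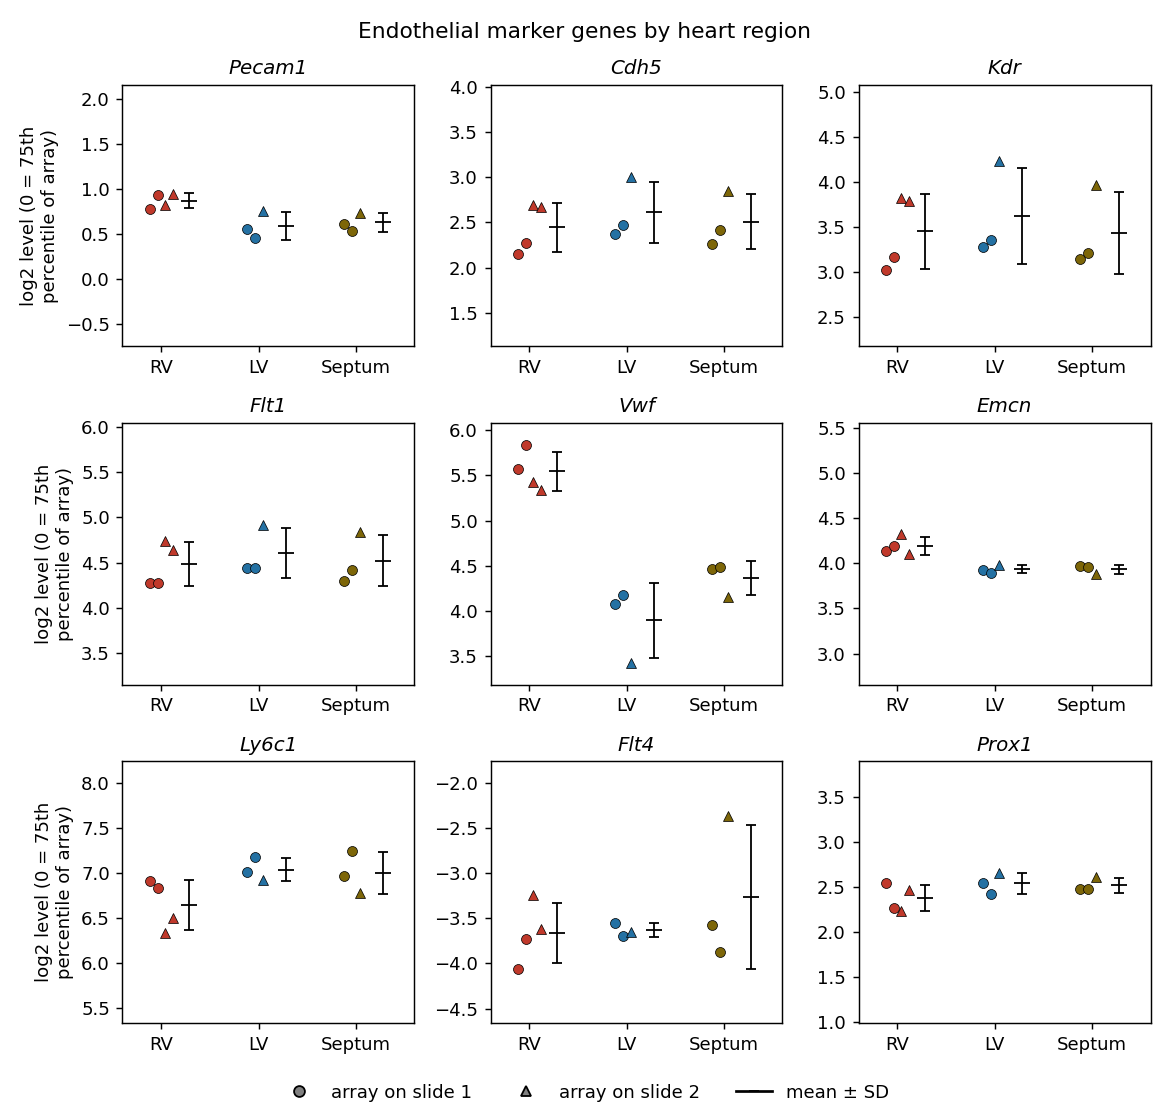
Log2 level of the 9 marker genes on each array (vertical axis, 0 is the 75th percentile of the array, each panel spans 2.9 log2 units) by region (horizontal axis), with circles for slide 1, triangles for slide 2 and bars for mean ± SD. Vwf on the 4 RV arrays sits between 5.34 and 5.84, above the 6 other arrays, while Cdh5, Kdr and Flt1 are higher on slide 2 in each region.

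The 4 other genes of blood vessel endothelium in general, Pecam1, Cdh5, Kdr and Flt1, showed no called difference in the fit with no block. Pecam1 was 0.78, 0.93, 0.82 and 0.95 on the RV arrays, 0.56, 0.46 and 0.76 on the LV arrays and 0.61, 0.54 and 0.74 on the Septum arrays. The RV arrays lay above all others. RV exceeded LV by 0.28 in the mean (SE 0.0937, 95% interval 0.07 to 0.49, adjusted p = 0.14, limma), a ratio of 1.21. Blocking on the slide gave a call, at 0.255 (adjusted p = 0.0418, limma). Between RV and Septum Pecam1 differed by 0.24 (95% interval 0.03 to 0.45, adjusted p = 0.284, limma).

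Cdh5, whose protein VE-cadherin joins neighbouring endothelial cells, had levels of 2.15, 2.27, 2.69 and 2.67 in RV, 2.37, 2.47 and 3.0 in LV and 2.26, 2.42 and 2.85 in Septum. In every region the arrays of slide 2 were higher than those of slide 1. The regions overlapped, and RV minus LV was -0.17 (95% interval -0.63 to 0.30, adjusted p = 0.719, limma). Kdr, which encodes VEGF receptor 2, ran from 3.02 to 3.82 in RV, from 3.28 to 4.23 in LV and from 3.14 to 3.96 in Septum, again with the slide 2 arrays highest. RV minus LV was -0.17 (95% interval -0.87 to 0.52, adjusted p = 0.814, limma). Flt1, which encodes VEGF receptor 1, ran from 4.27 to 4.74 in RV, from 4.44 to 4.92 in LV and from 4.30 to 4.84 in Septum. RV minus LV was -0.12 (95% interval -0.54 to 0.29, adjusted p = 0.775, limma). These 3 signs turned without LV replicate 3, to 0.0252 for Cdh5, 0.132 for Kdr and 0.0396 for Flt1.

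The shift between slides was larger than any difference between regions for these 3 genes. Slide 2 minus slide 1, averaged over regions, was 0.80 for Kdr, 0.52 for Cdh5 and 0.46 for Flt1. It was -0.46 for Vwf and -0.31 for Ly6c1, and at most 0.15 in size for Pecam1, Emcn and Prox1. Slide 2 lay on the same side in all 3 regions for Kdr (0.71 to 0.91) and for Vwf (-0.71 to -0.32). A slide held all 3 regions, so region differences could be taken within slides. With the slide as a block, 7 of the 8 marker genes were called between RV and LV, beside 17.6% of all probes in that fit (7.24% higher and 10.4% lower in RV). They were Vwf, Pecam1 and Emcn as higher in RV, and Cdh5 (-0.251, adjusted p = 0.0285), Kdr (-0.304, adjusted p = 0.0158), Flt1 (-0.198, adjusted p = 0.037) and Ly6c1 as lower (limma). Prox1 was not called (-0.174, adjusted p = 0.222, limma). With the replicate number as a block, 4 were called, beside 14.9% of all probes, namely Vwf, Emcn (0.286, adjusted p = 0.0392), Cdh5 (-0.24, adjusted p = 0.0295) and Kdr (-0.287, adjusted p = 0.0296; limma). Between RV and Septum Vwf alone among the brightest probes was called in these fits, where 8.74% and 7.12% of all probes were. Over the 3 regions together the fit with the slide as a block called Vwf, Kdr and Emcn, beside 12.7% of all probes, while 2.78% were called without it.

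**Figure D2:**
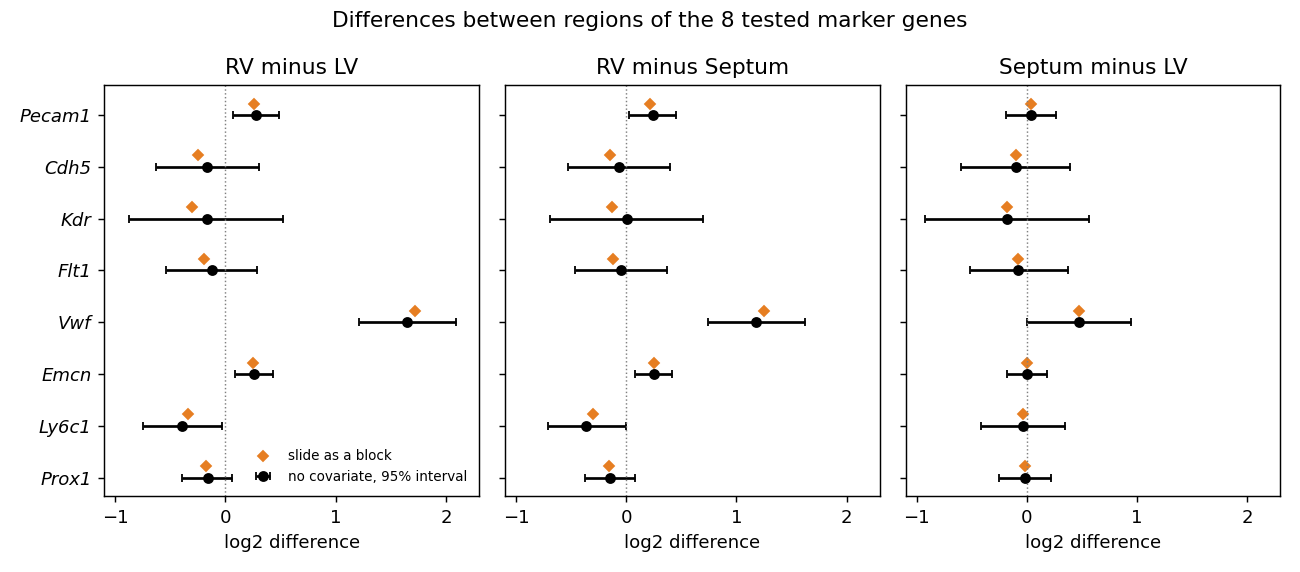
Log2 difference between regions (horizontal axis) of the 8 tested marker genes, with black points and 95% intervals from the fit with no covariate and orange diamonds from the fit with the slide as a block. The Vwf interval for RV minus LV runs from 1.21 to 2.09, and the wide intervals of Cdh5, Kdr and Flt1 include 0.

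Emcn was slightly higher on the RV arrays. Its level was 4.14, 4.19, 4.33 and 4.10 in RV, 3.93, 3.89 and 3.98 in LV and 3.97, 3.96 and 3.88 in Septum. All RV arrays lay above all LV and Septum arrays, which overlapped each other. The difference was 0.26 against LV (SE 0.0756, 95% interval 0.09 to 0.43, adjusted p = 0.0966, limma) and 0.25 against Septum (95% interval 0.08 to 0.42, adjusted p = 0.152, limma). Against LV it was called when the slide was a block (0.254, adjusted p = 0.0334, limma), with the replicate block and after quantile normalization. Emcn thus lay about 1.19-fold above LV, where Vwf lay 3.13-fold above.

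Ly6c1 was the tested marker with the most negative difference. Its brighter probe read 6.91, 6.83, 6.33 and 6.50 in RV, 7.01, 7.17 and 6.92 in LV and 6.97, 7.24 and 6.78 in Septum. All RV arrays lay below all LV arrays, and RV and Septum overlapped. RV minus LV was -0.39 (SE 0.159, 95% interval -0.75 to -0.03, adjusted p = 0.213, limma), a ratio of 0.762. Blocking on the slide gave -0.336 (adjusted p = 0.0412, limma). The second Ly6c1 probe gave -0.44 (adjusted p = 0.0988, limma), and -0.396 with the slide as a block (adjusted p = 0.00994, limma). For that probe the slide block also called RV lower than Septum (-0.335, adjusted p = 0.027, limma). The replicate block called it lower in RV than in both LV (-0.428, adjusted p = 0.0194, limma) and Septum (-0.367, adjusted p = 0.0389, limma). Ly6c1 has a closely related copy, Ly6c2, a marker of inflammatory monocytes. The Ly6c2 probe ran from 6.32 to 6.78 in RV, from 6.81 to 7.06 in LV and from 6.59 to 7.17 in Septum, with an RV minus LV of -0.38 (adjusted p = 0.21, limma). Whether each probe read only its own transcript was not tested, so the Ly6c1 values are uncertain.

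The lymphatic markers gave no called difference. Flt4 was close to background, well above it on 3 of 4 RV arrays, 1 of 3 LV arrays and 2 of 3 Septum arrays. Its levels were -4.06, -3.73, -3.24 and -3.62 in RV, -3.55, -3.70 and -3.65 in LV and -3.57, -3.87 and -2.36 in Septum. The groups overlapped, and no test was run. Prox1 was well above background on all arrays. It read 2.54, 2.27, 2.23 and 2.46 in RV, 2.54, 2.42 and 2.65 in LV and 2.47, 2.47 and 2.61 in Septum. The regions overlapped, with an RV minus LV of -0.16 (95% interval -0.39 to 0.06, adjusted p = 0.416, limma) and an RV minus Septum of -0.15 (95% interval -0.37 to 0.08, adjusted p = 0.582, limma).

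To set the more restricted markers against genes shared by endothelial cells, the mean log2 level of Pecam1, Cdh5 and Kdr was subtracted on each array. With the slide as a block Pecam1 was called higher in RV than in LV, and Cdh5 and Kdr lower, so this mean joins genes of opposite direction. Relative to these genes, Vwf was 3.29 ± 0.426 in RV (SD, n = 4), 1.62 ± 0.748 in LV (SD, n = 3) and 2.17 ± 0.473 in Septum (SD, n = 3). The RV arrays did not overlap with either other region. The difference was 1.67 against LV and 1.11 against Septum, each with an exact two-sided permutation p of 0.0571, which is the smallest that 4 arrays against 3 allow. After adjustment over the 15 comparisons of this kind the exact permutation p was 0.285 for both. Relative Emcn (0.28), Ly6c1 (-0.37) and Prox1 (-0.14) overlapped between RV and LV. These comparisons use neither the slide nor the replicate number, and Cdh5 and Kdr, which were subtracted, differed between slides. Within same-numbered arrays, the relative Emcn level in RV exceeded that in LV by 0.30, 0.27 and 0.56, and relative Vwf by 1.58, 1.63 and 2.23. Relative Flt1 overlapped between RV and LV as well. In RV it was lower than in Septum by 0.11 with no overlap (exact permutation p = 0.0571, adjusted 0.285). However, RV replicates 1 and 3 and Septum replicate 1 all read 2.29 when rounded. Within same-numbered arrays, relative Flt1 in RV minus that in Septum was 0.0, -0.22 and -0.03.

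The marker genes followed different patterns over the arrays. The following correlations run over 10 arrays, on levels centred on each slide, and are descriptions only, since the arrays share slides and regions. Kdr and Flt1 had a Pearson r of 0.89, Cdh5 and Kdr of 0.96 and Cdh5 and Flt1 of 0.93. Without centring these were 0.98, 0.99 and 0.99. Pecam1 did not follow these genes, at -0.70 with Cdh5, -0.59 with Kdr and -0.80 with Flt1 (0.21, 0.32 and 0.22 without centring). Emcn correlated with Kdr at -0.64 and with Flt1 at -0.68, and with Vwf at 0.86. Vwf correlated with Pecam1 at 0.82, with Cdh5 at -0.86 and with Ly6c1 at -0.86. Among 13634 named genes well above background on every array, those most like Vwf were Atp1b3 (0.991), a subunit of the sodium pump, Foxc1 (0.99), a forkhead transcription factor, and Plvap (0.989), which forms the diaphragms of endothelial caveolae and fenestrae. The gene most like Pecam1 was Afap1l2 (0.976), that most like Cdh5 was Otud3 (0.993), and that most like Kdr was E130311K13Rik (0.974). For Flt1 it was Mrpl44 (0.989), for Emcn Ncoa7 (0.975) and for Ly6c1 Rtp3 (0.998).

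Lists of other endothelial genes, and a list of VEGF ligands and co-receptors that also held angiopoietins, were described next to the markers. They held 76 genes in 7 lists, of which 74 were tested. Between RV and LV 8 were called higher in RV and 0 lower, beside 2.31% and 1.55% of all probes. Between RV and Septum 3 were called higher and 0 lower, beside 1.20% and 0.873%. Among these genes Vegfd and Angpt1, called against LV, and Angpt1, called against Septum, came from the list of ligands and co-receptors. Between Septum and LV limma called 0, with 2 at an unadjusted p under 0.05. The counts below are descriptions of lists that were chosen with earlier results of these data known.

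The 18 pan-endothelial genes, among them the angiopoietin receptor Tek, the junction gene Cldn5 and the transcription factor Erg, had a median RV minus LV of 0.0476 and 0 called genes. Their differences ran from -0.28 (Robo4, a guidance receptor) to 0.40 (Eng, a co-receptor for TGF-β ligands). When the slide was a block, Robo4 was called lower in RV (-0.365, adjusted p = 0.00542, limma), and Eng (0.331, adjusted p = 0.0406, limma) and Mmrn2, a matrix protein of vessels (0.237, adjusted p = 0.0432, limma), higher. Of the 11 capillary genes 0 were called, and 10 had a lower mean in RV than in LV, with a median of -0.24. Those with the largest differences were Cd300lg (-0.35, adjusted p = 0.272, limma), a receptor-like mucin of capillaries, and Rgcc (-0.32, adjusted p = 0.191, limma), a cell cycle regulator. With the slide as a block, 5 of the 11 were called lower in RV and 0 higher. In that fit 10.4% of all probes were called lower in RV and 7.24% higher. Of 11 arterial genes 1 was called, Bmx, a cytoplasmic kinase of arterial endothelium and endocardium, at 0.75 (adjusted p = 0.0411, limma). With the slide as a block, 3 arterial genes were called higher in RV, namely Bmx, Gja4 (0.272, adjusted p = 0.0269, limma) and Fbln5 (0.799, adjusted p = 0.0169, limma). In that fit 1 was called lower, Stmn2 (-0.226, adjusted p = 0.0449, limma).

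Genes of venous endothelium and of endocardium had higher medians in RV, as had the lymphatic, fibroblast, macrophage, mesothelial and adipocyte lists described below. The mesothelial and adipocyte medians against LV were larger, at 1.81 and 3.75. The 5 venous genes that read well above background across all RV and LV arrays had higher means in RV, with a median of 0.587, and 2 were called. Ackr1, an atypical chemokine receptor, passed the filter through RV, being well above background on 0 of 3 LV arrays, and is not counted. Plvap read 2.14, 2.26, 1.68 and 1.83 in RV, 0.78, 0.95 and 0.40 in LV and 1.22, 1.17 and 0.78 in Septum. The RV arrays lay above all others, by 1.27 against LV (SE 0.184, adjusted p = 0.00751, limma) and by 0.92 against Septum (adjusted p = 0.0391, limma). Vcam1, which encodes an adhesion molecule for leukocytes, differed by 0.60 (adjusted p = 0.0349, limma), and its other probe by 0.798 without a call (adjusted p = 0.198, limma). Selp, which encodes P-selectin, was not called against LV (0.59, adjusted p = 0.198, limma), but was with the slide (0.659, adjusted p = 0.0311, limma) or the replicate number (0.735, adjusted p = 0.0421, limma) as a block. Nr2f2 and Ephb4 were not called, with an RV minus LV of 0.19 (adjusted p = 0.42, limma) and 0.0202 (adjusted p = 0.967, limma).

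Of 8 endocardial genes that read well above background across all RV and LV arrays, 7 had a higher mean in RV, with a median of 0.395, and 2 were called. Adgrg6, an adhesion receptor, passed the filter through RV, being well above background on 1 of 3 LV arrays, and is not counted. Cytl1, which encodes a small secreted protein, read 3.87, 3.95, 3.88 and 3.52 in RV, 2.32, 2.04 and 1.32 in LV and 3.66, 2.71 and 3.33 in Septum. Its RV mean exceeded that of LV by 1.91 (SE 0.267, adjusted p = 0.00664, limma), whereas RV and Septum overlapped (0.57, adjusted p = 0.38, limma). Npr3, the clearance receptor for natriuretic peptides, read 2.34, 2.21, 1.36 and 1.70 in RV, 1.04, 0.68 and 0.03 in LV and 0.88, 0.62 and 0.30 in Septum. Its RV mean exceeded that of LV by 1.32 (SE 0.291, adjusted p = 0.0404, limma), and its other probe by 1.6 (adjusted p = 0.038, limma). With the slide as a block, 5 of the 8 were called higher in RV and 1 lower, beside 7.24% and 10.4% of all probes. The gene called lower was Gata4, which cardiomyocytes also express (-0.341, adjusted p = 0.00353, limma). The calls between RV and LV of Npr3 and Bmx were lost without 8 of the 10 arrays in turn and that of Vcam1 without 7, whereas those of Cytl1 and of Plvap between RV and LV held without each array. The call of Plvap between RV and Septum was lost without 8 of the 10 arrays in turn.

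**Figure D3:**
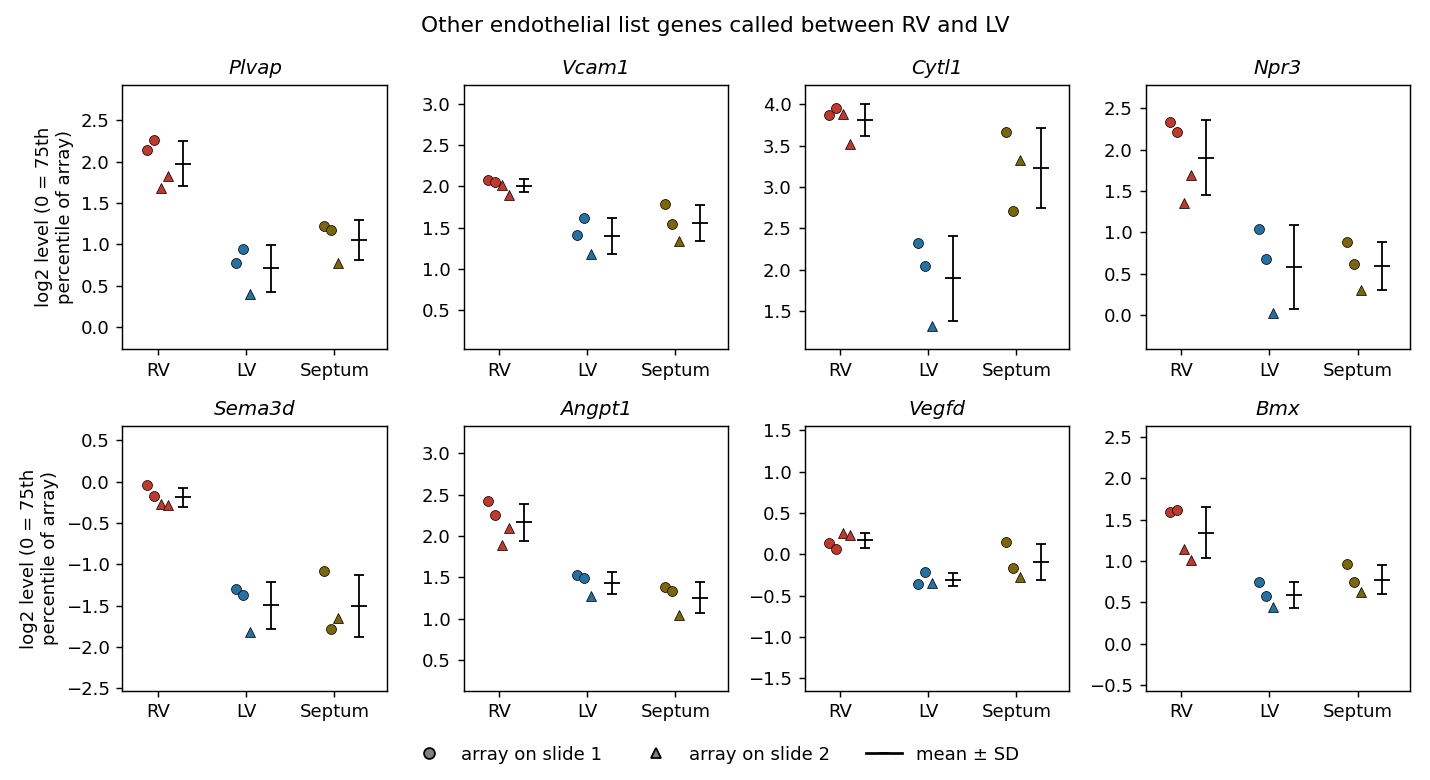
Log2 level on each array (vertical axis, 0 is the 75th percentile of the array) by region (horizontal axis), with circles for slide 1, triangles for slide 2 and bars for mean ± SD. Shown are the 8 genes called between RV and LV in the endothelial lists and the list of VEGF ligands and co-receptors. For all 8 genes the 4 RV arrays lie above the 3 LV arrays, and for Cytl1 the Septum arrays reach up to 3.66, into the range of RV.

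The ligands gave a mixed picture. Vegfa, the ligand of Kdr and Flt1, ran from 3.69 to 4.19 in RV, from 4.05 to 4.72 in LV and from 4.08 to 4.60 in Septum. It was not called between RV and LV (-0.37, adjusted p = 0.369, limma), and was called lower with the slide as a block (-0.458, adjusted p = 0.00413, limma). Vegfd, a ligand of Flt4, was higher in RV, by 0.48 against LV (adjusted p = 0.0412, limma). Its other probe read higher in RV, by 0.464 against LV (adjusted p = 0.0445, limma) and by 0.639 against Septum (adjusted p = 0.0205, limma), where the brighter probe was not called (0.27, adjusted p = 0.299, limma). Angpt1, which encodes the activating ligand of Tek, read 2.42, 2.26, 1.89 and 2.10 in RV, 1.53, 1.49 and 1.28 in LV and 1.39, 1.33 and 1.04 in Septum. It was higher in RV, by 0.73 against LV (adjusted p = 0.024, limma) and by 0.92 against Septum (adjusted p = 0.0151, limma). The calls between RV and LV were lost without 8 of the 10 arrays in turn for Vegfd and without 6 for Angpt1, and that of Angpt1 against Septum without Septum replicate 2 or 3. The remaining 6 genes of this list, Vegfb, Vegfc, Pgf, Nrp1, Nrp2 and Angpt2, were not called.

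Of 10 other lymphatic genes 1 was called. Against LV 7 of them had a higher mean in RV, with a median of 0.32, and against Septum 8, with a median of 0.407. Sema3d, which encodes a secreted semaphorin and is not limited to lymphatic vessels, read -0.04, -0.18, -0.27 and -0.28 in RV, -1.30, -1.37 and -1.82 in LV and -1.08, -1.78 and -1.65 in Septum. It was higher in RV by 1.30 against LV (adjusted p = 0.00664, limma) and by 1.31 against Septum (adjusted p = 0.00988, limma), the latter lost without Septum replicate 2 (adjusted p = 0.0533, limma). Lyve1, a hyaluronan receptor of lymphatic vessels and macrophages, differed between RV and LV by 0.60 (adjusted p = 0.268, limma) and Pdpn, a mucin of lymphatic vessels and mesothelium, by 0.71 (adjusted p = 0.158, limma). Ccl21a, the lymphatic chemokine, ran from 2.84 to 3.50 in RV and from 3.10 to 3.24 in LV. Blocking on the slide called 4 of the 10 higher in RV than in LV and 0 lower, beside 7.24% and 10.4% of all probes.

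**Figure D4:**
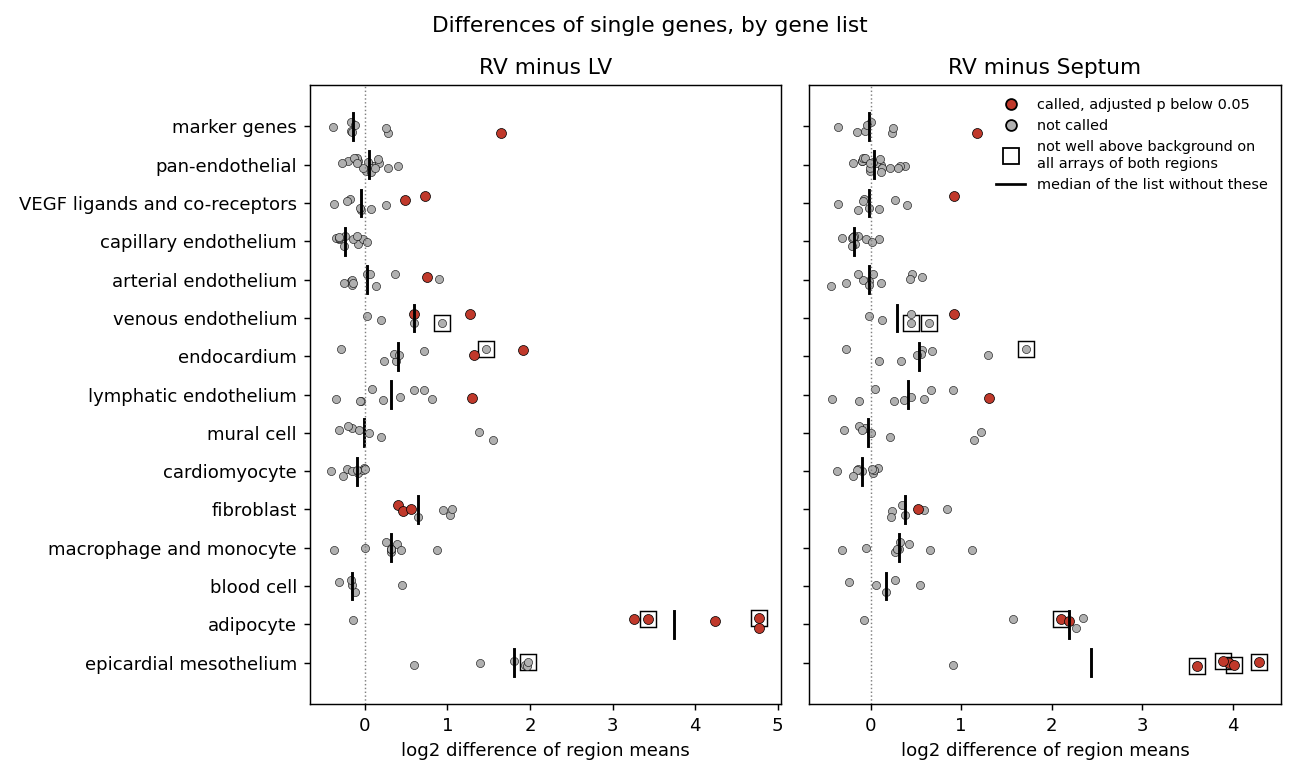
Log2 difference of region means (horizontal axis) for each tested gene of 15 lists (rows), RV minus LV on the left and RV minus Septum on the right, with called genes in red, other genes in grey, squares around genes that missed the background level on an array of either region, and a vertical bar at the median of the list without these. The capillary genes lie mostly below 0, with a median of -0.24 against LV. The venous, endocardial, lymphatic, fibroblast, macrophage and mesothelial genes lie mostly above it. The adipocyte genes lie farthest to the right against LV, with a median of 3.75.

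Markers of other cell types also differed between the pieces of tissue. The summed linear levels of 6 adipocyte genes ran from 20.4 to 32.9 on RV arrays, from 1.5 to 2.84 on LV arrays and from 4.45 to 13.2 on Septum arrays, where 1 is the 75th percentile of an array. Cfd added most to the sum in RV and in Septum. Of the 6 adipocyte genes 5 were called between RV and LV. Of these, Adipoq and Plin1 were well above background on 0 LV arrays and passed the filter through RV. The sum of 6 genes of epicardial mesothelium ran from 7.51 to 21.9 in RV, from 4.42 to 7.18 in LV and from 1.41 to 3.04 in Septum, with 5 genes called between RV and Septum. Of these 5, 4 missed the background level on at least 1 Septum array, and all 5 calls were lost with no filter on dim probes and in the methods' analysis of variance. The sum of 7 fibroblast genes ran from 353.0 to 421.0 in RV, from 231.0 to 279.0 in LV and from 284.0 to 332.0 in Septum. Dcn added most to this sum, so it says little about the other genes. Of the 7 genes 3 were called between RV and LV. These calls were lost without 9 of the 10 arrays in turn for Dcn, 8 for Pdgfra and 4 for Tcf21. All 7 fibroblast genes had a higher mean in RV than in LV, with a median of 0.641. The part of these tissues in the Vwf, Plvap, Angpt1 and Sema3d differences was not tested.

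The summed level of 18 pan-endothelial genes overlapped between the regions. Egfl7 and Cd34 added most to it, so it says little about the other genes. This sum ran from 245.0 to 271.0 in RV, from 241.0 to 269.0 in LV and from 233.0 to 261.0 in Septum. That of 8 mural cell genes ran from 162.0 to 252.0 in RV and from 174.0 to 191.0 in LV, with 0 called. Acta2, a smooth muscle actin gene, had the highest mean of that list in each region. Its brightest probe, which entered the sum, read lower in RV than in LV (-0.31, adjusted p = 0.164, limma). The other Acta2 probes read higher in RV, by 1.22 (adjusted p = 0.0515, limma) and 1.38 (adjusted p = 0.0501, limma). By brightest probe, the smooth muscle genes Tagln (1.55, adjusted p = 0.0619, limma) and Myh11 (1.38, adjusted p = 0.0991, limma) had the largest differences of that list between RV and LV. Both were called higher in RV when the slide was a block (1.43, adjusted p = 0.0184, and 1.23, adjusted p = 0.0161, limma), and the pericyte gene Rgs5 lower (-0.211, adjusted p = 0.0315, limma). The 9 macrophage and monocyte genes had a median RV minus LV of 0.314, with 7 of 9 higher in RV and 0 called. Their sum, to which Ly6c2 and Itgam add most, ran from 193.0 to 217.0 in RV and from 219.0 to 228.0 in LV. Blocking on the slide called 2 of them, Csf1r and C1qa, higher in RV and 1, Ly6c2, lower, beside 7.24% and 10.4% of all probes. Of the 9 cardiomyocyte genes 8 had a lower mean in RV than in LV, with a median of -0.101 and 0 called by their brightest probes. Ttn, which encodes titin, differed by -0.41 (adjusted p = 0.0708, limma), and 1 of its other probes was called lower (-0.504, adjusted p = 0.0122, limma). With the slide as a block Ttn (-0.447, adjusted p = 0.00649, limma), the calcium release channel gene Ryr2 (-0.292, adjusted p = 0.0135, limma) and the actin gene Actc1 (-0.228, adjusted p = 0.0305, limma) were called lower in RV. Of 5 blood cell genes 0 were called between RV and LV without a block. Of these, 1 had a higher mean in RV and 4 a lower mean, with a median of -0.159. With the slide as a block, Pf4 alone, which encodes a platelet chemokine, was called higher in RV than in LV (0.565, adjusted p = 0.0127, limma). Against Septum it was called too (0.666, adjusted p = 0.01, limma). The replicate block also called Pf4 higher in RV than in LV (0.574, adjusted p = 0.0336, limma). The part of platelets in the Vwf difference was not tested. Hbb-bs, a globin gene of the blood list, had no named probe.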

How the data were processed

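Total RNA of 4 RV, 3 LV and 3 Septum samples was hybridised to 1-colour Agilent mouse arrays, and groups and replicate numbers came from the sample titles. The authors deposited the intensity of each spot as written by Agilent Feature Extraction (version 11.5.1.1 per the submitters' processing notes), background-subtracted and not scaled between arrays. A further deposited table, made by the authors with GeneSpring, holds log2 values and served as an alternative. The file of RV replicate 1 holds signals rounded to fewer digits.

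Control spots and 56 to 128 outlier spots on each array were dropped, repeat spots were averaged, and log2 values were scaled to each array's 75th percentile. Of 56605 probes 30234 (53.4%) passed the filter on dim probes. Probes were named through RefSeq accessions and a GRCm38.p6 gene table (32994 probes, 58.3%). The array files name build mm9, so no gene coordinates are given from that table. The brightest probe stands for a gene. Of the kept probes, 59 lacked a value on at least 1 array. The number of arrays limits the precision.

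limma (version 3.58.1, R 4.3.3) fitted 1 mean per region to all 10 arrays (2.46 prior degrees of freedom). Tests were two-sided, p-values were adjusted by Benjamini-Hochberg over the probes tested, and calls needed an adjusted p below 0.05. Intervals are not adjusted. The methods' analysis of variance (with Tukey's correction) was run as an alternative. The other alternatives were quantile normalization, median scaling, the percentile over 27227 probes well above background on all arrays, normexp (offset 50, on median signals, since the files hold no mean signal column), other filters, the mean of a gene's probes, slide or replicate number as a block, each slide alone, and leaving out each array. Where slide 2 stood alone, the lone LV and Septum arrays were assumed to vary like the RV arrays. Deviations of same-numbered arrays from their region means correlated at 0.411 to 0.735 in all 9 pairs, so the number was used as a block in an alternative fit. The main fit and the permutation tests use neither the number nor the slide. Differently numbered arrays of a slide correlated at 0.094 to 0.643, and RV replicate 4 correlated with LV and Septum replicate 3 at 0.638 and 0.643, above RV replicate 3 (0.444 and 0.47), so that slide and number are not told apart there. RV replicate 4 has no partner and does not bear on the fit with that block. Arrays of different slides correlated at -0.229 or below. Centring on region means makes such values negative where slides differ, so they do not bear on pairing. The exact permutation test was made with scipy (version 1.17.1). The scripts were tested on simulated data.

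The marker genes and gene lists were chosen with earlier results of these data known. Named from the lists were called genes, at most 5 per list and comparison, else the 2 with the largest differences. Others named (Tek, Cldn5, Erg, Selp, Nr2f2, Ephb4, Gata4, Mmrn2, Ackr1, Adgrg6, Gja4, Fbln5, Stmn2, Rgs5, Acta2, Ttn, Ryr2, Actc1, Vegfa, Lyve1, Pdpn, Ccl21a and further genes not called) were chosen after their values were seen.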

Additional observations from a re-analysis of the deposited data

How the results depend on the processing

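The higher level of Vwf in RV than in LV held its direction and call under all 23 alternatives, with differences of 1.41 to 1.96 and adjusted p up to 0.0312 (limma and the methods' analysis of variance). Its call between RV and Septum held in 17 of 23 and was lost with no filter on dim probes, on slide 2 alone and without 4 single arrays. The count of marker genes called between RV and Septum was therefore 0 with no filter and on slide 2 alone, and 0 to 1 when arrays were left out. Between RV and LV the count was 2 after quantile normalization, 4 with the replicate block and 7 with the slide as a block, and over all 3 regions it was 3 with the slide as a block. By the brightest probes, the blocks changed no call of a marker gene beyond those named with its values. Plvap kept its call between RV and LV in all 23 alternatives, and Cytl1 and Sema3d lost theirs on slide 1 alone. The median difference of the marker genes ranged from -0.269 (slide 2 alone) to 0.0857 (without LV replicate 3) between RV and LV, and from -0.155 (slide 2 alone) to 0.17 (without Septum replicate 3) between RV and Septum. With arrays left out in turn the lowest were -0.211 and -0.147. Relative Flt1 between RV and LV moved to -0.0315 on slide 2 alone. The cause of these changes was not tested.

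Some differences that were not called in the fit with no covariate changed sign. Kdr between RV and Septum was -0.107 with the replicate block, -0.124 with the slide as a block, -0.0873 on slide 1 and -0.158 on slide 2. Between Septum and LV, Prox1 was 0.00455 with the percentile over probes well above background on all arrays and 0.00926 after quantile normalization, and Ly6c1 was 0.0258 after quantile normalization and 0.0173 on slide 1. Pecam1 was -0.0288 with median scaling and -0.0269 on slide 2, and Emcn -0.00816 with normexp, -0.0622 with median scaling and -0.0999 on slide 2. With arrays left out in turn, Septum minus LV ranged from -0.0325 to 0.12 for Pecam1, -0.0177 to 0.031 for Emcn, -0.156 to 0.0731 for Ly6c1, -0.272 to 0.0897 for Cdh5, -0.442 to 0.124 for Kdr, -0.237 to 0.0835 for Flt1 and -0.0732 to 0.0395 for Prox1. RV minus LV, negative on both slides and called with the slide as a block, ranged from -0.288 to 0.0252 for Cdh5, -0.343 to 0.132 for Kdr and -0.209 to 0.0396 for Flt1, and RV minus Septum from -0.19 to 0.106 for Cdh5, -0.154 to 0.115 for Flt1 and -0.14 to 0.27 for Kdr. Flt4 was too close to background on these arrays for a test.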
